A study of Mus musculus with 9 samples.

Results

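The genes described here are 10 genes that encode basement membrane proteins, read in bulk RNA of mouse cultures that are neural by label. They are the laminin chains Lama1, Lama2, Lama4, Lama5, Lamb1, Lamb2 and Lamc1, the nidogens Nid1 and Nid2, and Sparc. They are a list of names, 10 of the 24100 genes in the count table, and the list sets no threshold on a level or a change. All 10 passed the filter on low counts, as did 14761 genes in all.

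The cultures were grown from mouse embryonic stem cells and differentiated into cells called neural in the labels. The series asked which genes change in such cells when mutants of histone H4 are expressed. H4K91R cells expressed H4 with arginine, which is also positively charged, in place of a lysine. H4K91Q cells expressed H4 with glutamine, an uncharged mimic of acetyl-lysine, at that position, and H4WT cells expressed the wild-type protein. Every group, H4WT included, stably carried its histone as an HA-tagged PiggyBac transgene, HA being a short peptide tag and PiggyBac a DNA transposon. The labels name no change to the cells' own H4 genes. The sources used here do not give the transgene's promoter, the parent line or the number of clones. Library names in every group carry the same mark, which may be a time label but whose meaning is not stated. No length of differentiation is therefore given here. Each group had 3 libraries of poly(A) RNA. The labels do not say whether these came from separate differentiations, so a p-value measures the spread between these libraries only, which may be technical.

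Basement membranes are thin sheets of matrix under epithelia and around muscle, fat, nerve and vessels. Laminins are their main scaffold. Each laminin is a trimer of an alpha, a beta and a gamma chain, joined in the endoplasmic reticulum. The alpha chain carries the domains that bind integrins and dystroglycan on cells. Nidogens bind the gamma chain and link laminin to the collagen IV network. Sparc is a collagen-binding glycoprotein that is not part of the scaffold itself. In the early embryo the trimer of the Lama1, Lamb1 and Lamc1 products is made in large amounts by the endoderm around the embryo, and the same trimer lies under the neuroepithelium.

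Total counts ran from 9743050 to 16704020 in H4K91R, 16364686 to 22661768 in H4K91Q and 8970553 to 28887501 in H4WT. Levels are given as CPM, counts scaled to library totals that TMM corrects for a few very abundant genes. A count of 0 allows up to 3 counts, or 0.173 to 0.295 CPM in H4K91R libraries, 0.129 to 0.176 CPM in H4K91Q and 0.111 to 0.367 CPM in H4WT. These limits cover counting error only. The smallest count of any of the 10 genes in a library was 78, for Lama2, and the largest was 168171, for Sparc.

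Of the 10 genes, 7 fell and 1 rose in H4K91R against H4WT, and 8 fell and 1 rose in H4K91Q against H4WT (edgeR quasi-likelihood test, Benjamini-Hochberg adjusted p below 0.05 over 14761 genes). Lama1, Lamb1 and Lamc1, the chains of the embryonic trimer, fell to 0.624 to 0.634 times their H4WT level in H4K91R and 0.483 to 0.527 times in H4K91Q. Lama4 was the gene that rose, to 2.18 times its H4WT level in H4K91R and 2.15 times in H4K91Q. Lama2 passed in neither comparison, and Lamb2 passed only in H4K91Q, close to the threshold. These counts stand against a high background. Of all tested genes, 46% were called in H4K91R against H4WT, 20.9% higher and 25.1% lower, and 46.3% in H4K91Q against H4WT, 22.5% higher and 23.8% lower. The median log2 change over the 10 genes was -0.67 in H4K91R and -0.87 in H4K91Q, beside -0.03 and 0.01 over all tested genes. The libraries of H4K91R and H4WT did not overlap for 8 of the 10 genes, 1 higher and 7 lower, beside 55.1% of all tested genes, 25% higher and 30.1% lower. Those of H4K91Q and H4WT did not overlap for 9 of the 10, 1 higher and 8 lower, beside 55.1% of all tested genes, 27.4% higher and 27.7% lower. Both comparisons use the same H4WT libraries. In bulk RNA, fewer cells of a type and less RNA per cell cannot be told apart.

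**Figure D1:**
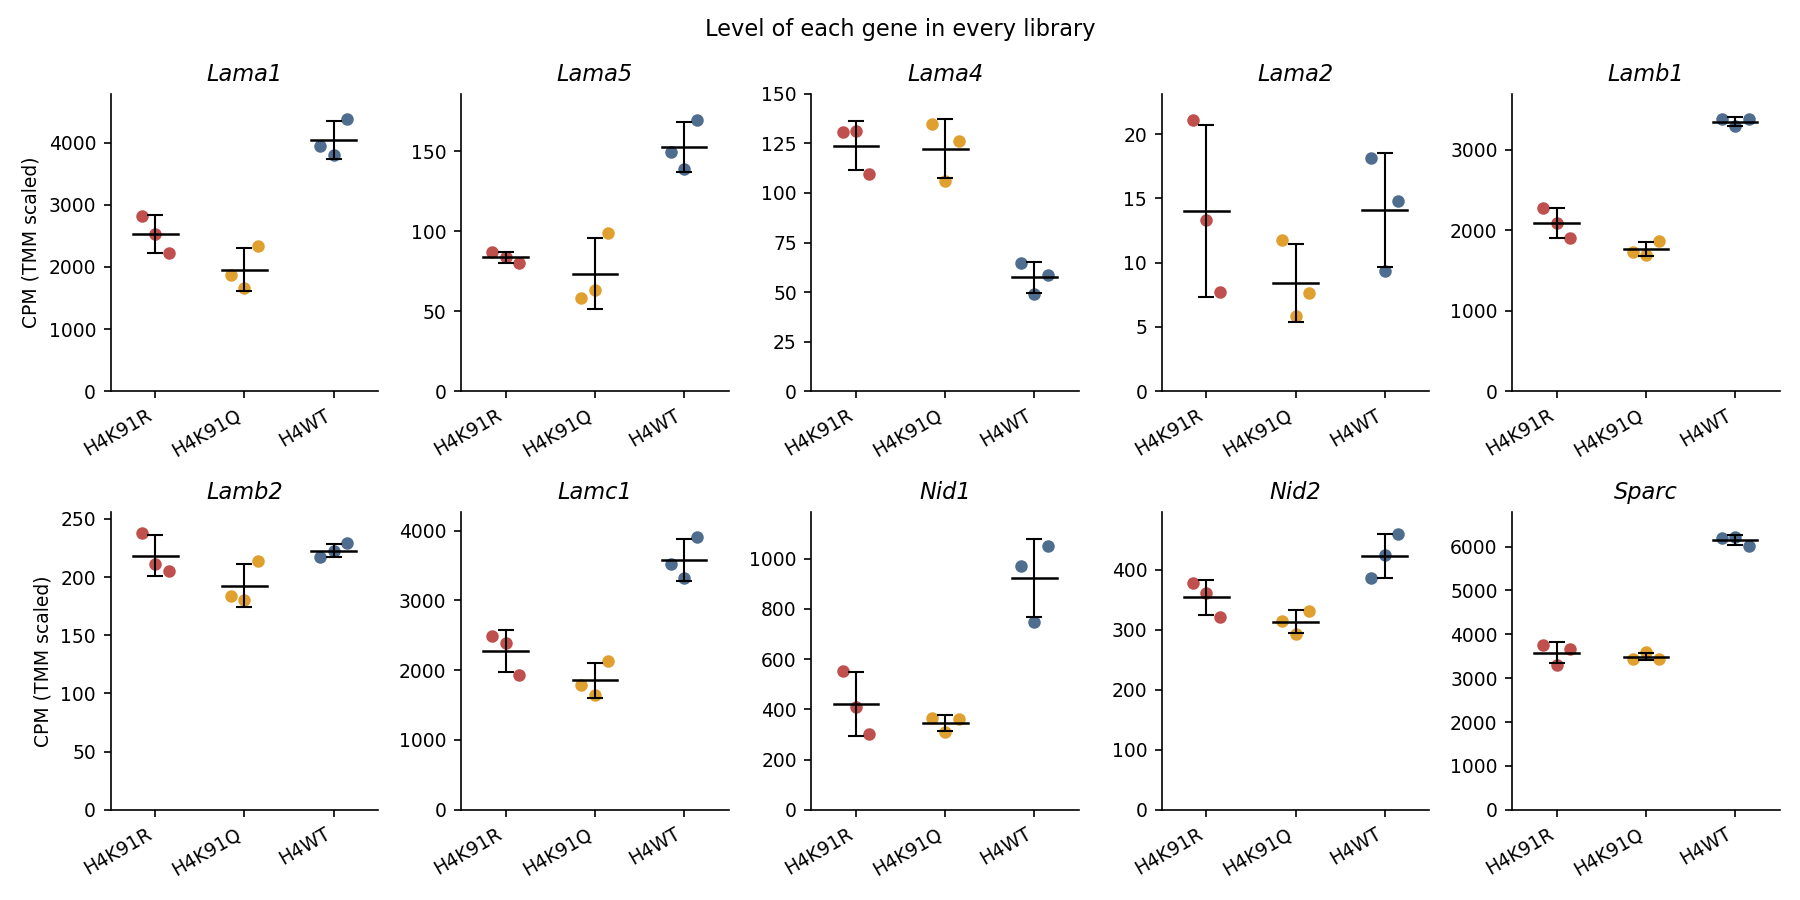
Level of each of the 10 genes in every library, in CPM on the TMM scale (vertical axes start at 0). Points are libraries, horizontal lines group means and bars ± SD (n = 3). Lama4 is higher in all mutant libraries than in all H4WT libraries, Lama2 overlaps among the groups, and Sparc lies between 3306 and 3760 CPM in the mutants against 6026 to 6229 CPM in H4WT.

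**Figure D2:**
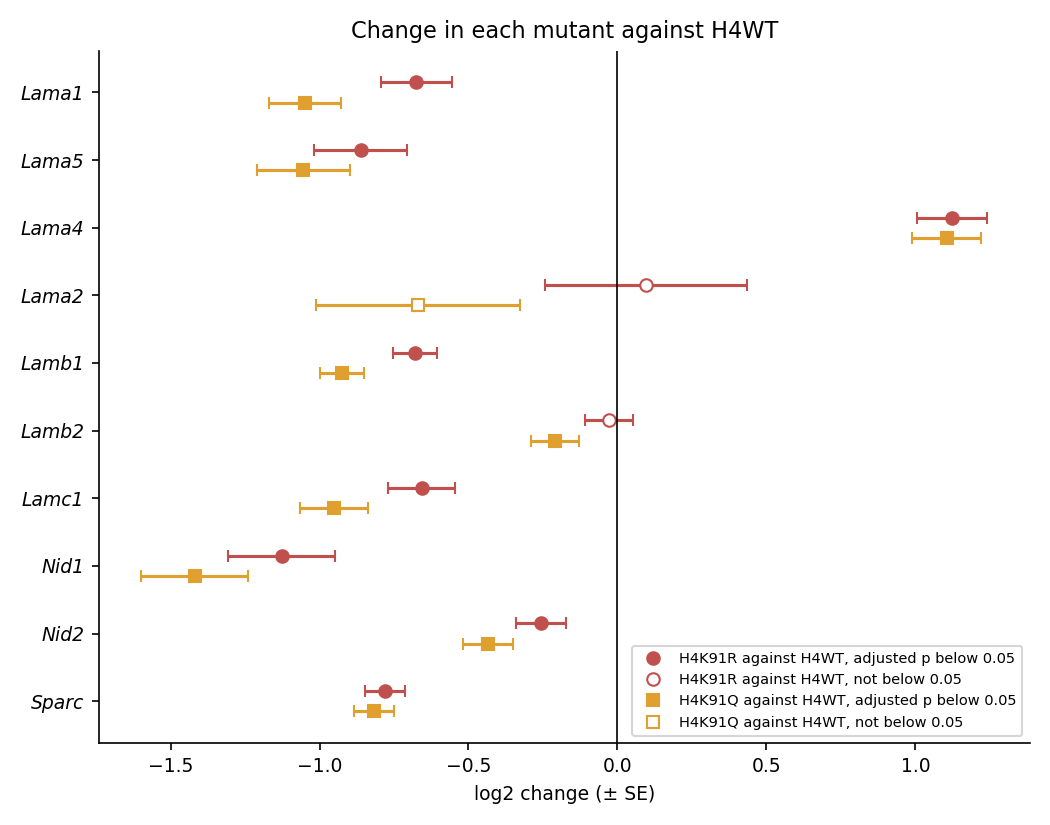
Log2 change ± SE of each gene in H4K91R (circles) and H4K91Q (squares) against H4WT. Filled symbols passed the edgeR test at an adjusted p below 0.05. Lama4 lies right of 0 at 1.12 and 1.10, and the filled symbols of the other genes lie left of 0.

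The embryonic trimer comes first. Lama1, the alpha chain of early embryonic laminin (Entrez 16772, GRCm38.p6 chromosome 17, 67697127 to 67822645, 63 exons), stood at 2828, 2538 and 2227 CPM in H4K91R libraries. It stood at 1866, 1659 and 2339 CPM in H4K91Q and at 3945, 3804 and 4382 CPM in H4WT. Every mutant library lay below every H4WT library, while the mutants overlapped. The mean was 2531 ± 301 CPM in H4K91R, 1955 ± 349 CPM in H4K91Q and 4044 ± 301 CPM in H4WT (SD, n = 3 each). Lama1 fell by 0.68 ± 0.12 on the log2 scale in H4K91R (SE, edgeR, adjusted p = 0.000455) and by 1.05 ± 0.12 in H4K91Q (adjusted p = 1.55e-05).

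Lamb1, the beta chain of that trimer (Entrez 16777, chromosome 12, 31265146 to 31329644, 33 exons), stood at 2271, 2095 and 1908 CPM in H4K91R and at 1734, 1696 and 1867 CPM in H4K91Q. It stood at 3383, 3291 and 3381 CPM in H4WT. All libraries of the 3 groups were apart from those of the other groups, with H4WT highest and H4K91Q lowest. Lamb1 fell by 0.68 ± 0.07 on the log2 scale in H4K91R (edgeR, adjusted p = 8.63e-06) and by 0.92 ± 0.07 in H4K91Q (adjusted p = 1.17e-06). Its H4WT libraries varied little, with a mean of 3352 ± 52.7 CPM.

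Lamc1, the gamma chain shared by most laminins (Entrez 226519, chromosome 1, 153218922 to 153332786, 28 exons), stood at 2490, 2396 and 1931 CPM in H4K91R and at 1788, 1639 and 2133 CPM in H4K91Q. It stood at 3520, 3319 and 3911 CPM in H4WT. Both mutants lay wholly below H4WT and overlapped with each other. Lamc1 fell by 0.66 ± 0.11 on the log2 scale in H4K91R (edgeR, adjusted p = 0.000368) and by 0.95 ± 0.11 in H4K91Q (adjusted p = 2.13e-05). As ratios to H4WT, Lama1, Lamb1 and Lamc1 stood at 0.626, 0.624 and 0.634 in H4K91R and at 0.483, 0.527 and 0.517 in H4K91Q, with like sizes among the chains of this trimer within a mutant.

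The other alpha chains did not all follow Lama1. Lama5, the alpha chain of many epithelial and vascular basement membranes (Entrez 16776, chromosome 2, 180176373 to 180225904, 79 exons), stood at 87.1, 83.9 and 80.3 CPM in H4K91R. It stood at 58.2, 63.5 and 98.8 CPM in H4K91Q and at 150, 139 and 170 CPM in H4WT. The mutants lay below H4WT, and H4K91Q replicate 3 lay above all H4K91R libraries. Lama5 fell by 0.86 ± 0.16 on the log2 scale in H4K91R (edgeR, adjusted p = 0.000577) and by 1.05 ± 0.16 in H4K91Q (adjusted p = 0.000125).

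Lama4, the alpha chain of vessel walls, fat and mesenchyme (Entrez 16775, chromosome 10, 38965515 to 39110188, 38 exons), stood at 131, 131 and 109 CPM in H4K91R. It stood at 135, 106 and 126 CPM in H4K91Q and at 64.7, 49.1 and 58.5 CPM in H4WT. All 6 mutant libraries were above all 3 H4WT libraries, and the mutants overlapped. Lama4 rose by 1.12 ± 0.12 on the log2 scale in H4K91R (edgeR, adjusted p = 6.37e-06) and by 1.10 ± 0.12 in H4K91Q (adjusted p = 8.64e-06).

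Lama2, the alpha chain of muscle and peripheral nerve, whose loss causes a muscular dystrophy (Entrez 16773, chromosome 10, 26981285 to 27617191, minus strand, 65 exons), was the scarcest. It stood at 21.1, 13.3 and 7.68 CPM in H4K91R, at 11.8, 5.83 and 7.62 CPM in H4K91Q and at 18.2, 9.33 and 14.8 CPM in H4WT. The 3 groups overlapped, and the libraries of H4K91R alone spanned nearly the range of all 9. The log2 change was 0.10 ± 0.34 in H4K91R (edgeR, adjusted p = 0.842) and -0.67 ± 0.34 in H4K91Q (adjusted p = 0.129). With the replicate number as a block, the H4K91Q value was -0.73 with an adjusted p of 0.0100, so its call depends on that choice. The H4K91R value turned to -0.34 without H4K91R replicate 1 and to -0.19 without H4WT replicate 2. Its counts, 78 to 366 per library, and its coefficients of variation of 48.0%, 36.2% and 31.6% in H4K91R, H4K91Q and H4WT allow no direction to be given for H4K91R. In H4K91Q the log2 change was below 0 under every setting tried, from -1.0 to -0.44, but these settings reuse the same libraries and most gave no call. Lama2 was also lower than in the H4WT library of the same number in all 3 pairs, though the labels give no meaning to the number. The groups overlapped, so no fall is called in H4K91Q.

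Lamb2, the beta chain of neuromuscular synapses and of the kidney filter (Entrez 16779, chromosome 9, 108479847 to 108490530, 33 exons), stood at 238, 212 and 205 CPM in H4K91R. It stood at 184, 180 and 214 CPM in H4K91Q and at 217, 222 and 229 CPM in H4WT. H4K91R overlapped with H4WT on both sides, while all H4K91Q libraries lay below all H4WT libraries, the highest of them by a small margin. The log2 change was -0.03 ± 0.08 in H4K91R (edgeR, adjusted p = 0.801), and Lamb2 fell by 0.21 ± 0.08 in H4K91Q (adjusted p = 0.0488). That call ended with the replicate block (adjusted p = 0.0563), with DESeq2 (0.0555) and with library size scaling (0.714). In H4K91R the sign turned with 4 of the 7 other settings, among them 0.16 with library size scaling.

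Nid1 and Nid2, which connect laminin to collagen IV and can stand in for each other in mice, moved by unlike amounts. Nid1 (Entrez 18073, chromosome 13, 13437602 to 13512275, 20 exons) stood at 554, 409 and 302 CPM in H4K91R, at 367, 308 and 360 CPM in H4K91Q and at 971, 749 and 1050 CPM in H4WT. Both mutants lay below all H4WT libraries, and H4K91R replicate 1 was the highest of the mutant libraries. Nid1 fell by 1.13 ± 0.18 on the log2 scale in H4K91R (edgeR, adjusted p = 0.000201) and by 1.42 ± 0.18 in H4K91Q (adjusted p = 3.57e-05), to 0.458 and 0.374 times H4WT. Among the 10 genes these were the largest falls in each mutant.

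Nid2 (Entrez 18074, chromosome 14, 19751257 to 19811787, 21 exons) stood at 379, 362 and 322 CPM in H4K91R, at 314, 294 and 332 CPM in H4K91Q and at 386, 425 and 460 CPM in H4WT. The highest H4K91R library came within a few CPM of the lowest H4WT library without crossing it. Nid2 fell by 0.26 ± 0.08 on the log2 scale in H4K91R (edgeR, adjusted p = 0.0239) and by 0.43 ± 0.08 in H4K91Q (adjusted p = 0.000976). The H4K91R call ended with library size scaling (adjusted p = 0.517), with the compared groups fitted alone (0.0526), and without H4K91R replicate 3 (0.0915), H4WT replicate 2 (0.0582) or H4WT replicate 3 (0.116). The H4K91Q call stood in every fit tried. The end of Nid2 overlaps that of Rtraf on the opposite strand by 386 bases. Rtraf averaged 131, 159 and 139 CPM in H4K91R, H4K91Q and H4WT, and since the strand setting is not known, reads of the 2 genes in that stretch cannot be told apart.

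Sparc, a matrix glycoprotein that binds collagen and aids its deposition (Entrez 20692, chromosome 11, 55394159 to 55420080, 10 exons), stood at 3760, 3306 and 3675 CPM in H4K91R. It stood at 3438, 3588 and 3448 CPM in H4K91Q and at 6194, 6229 and 6026 CPM in H4WT. The mutants overlapped and lay far below H4WT, with little spread within any group. Sparc fell by 0.78 ± 0.07 on the log2 scale in H4K91R (edgeR, adjusted p = 1.18e-06) and by 0.82 ± 0.07 in H4K91Q (adjusted p = 1.31e-06). Its libraries did not follow the order of the laminins: within H4K91Q and within H4WT, Sparc was highest in replicate 2, where 8 and 7 of the 10 genes were lowest.

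The comparison of H4K91Q with H4K91R asked whether the glutamine and arginine mutants differ. None of the 10 genes was called (edgeR, 0 of 10, against 5.16% of all tested genes, 2.37% higher and 2.78% lower). At an unadjusted p below 0.05, 5 of the 10 genes passed, beside 22.3% of all tested genes, and DESeq2 called 2 of the 10, limma-voom 0. The log2 difference was below 0 for all 10 genes, beside 49% of tested genes, with a median of -0.22. The values closest to the threshold were Lamb1 at -0.24 ± 0.07 (edgeR, adjusted p = 0.0742) and Lama1 at -0.37 ± 0.12 (adjusted p = 0.0893). Lamb1 was the only one of the 10 whose H4K91Q and H4K91R libraries did not overlap, as in 25.4% of all tested genes. Lama4 and Sparc gave differences of -0.02 ± 0.11 and -0.04 ± 0.07, and their signs turned without single libraries. A p that misses the threshold does not show that the mutants act alike on these genes.

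The call count between the mutants depended on the fit. DESeq2 called Lama1 (adjusted p = 0.0281) and Lamb1 (0.0161). The edgeR fit called Lamb1 and Lamc1 without H4K91R replicate 3, and Lama1, Lama5, Lamb1 and Lamc1 without H4K91Q replicate 3. H4K91Q replicate 3 was the library with the highest level in its group for 6 of the 10 genes. In the joint test over the 3 groups 8 of the 10 genes differed (edgeR, beside 50.6% of all tested genes), and Lamb2 (adjusted p = 0.0828) and Lama2 (0.133) did not.

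Levels of different genes were compared as CPM per kilobase of the longest coding transcript. On that scale Sparc was the most abundant of the 10, at 1560 ± 105 in H4K91R, 1520 ± 36.5 in H4K91Q and 2670 ± 47.2 in H4WT (SD, n = 3). Lamb1, Lamc1 and Lama1 followed in that order in each group. Lamb1 stood at 362 ± 31.4, 305 ± 15.5 and 579 ± 9.09 CPM per kilobase in H4K91R, H4K91Q and H4WT. Lamc1 stood at 298 ± 39.3, 243 ± 33.2 and 470 ± 39.5, and Lama1 at 266 ± 31.6, 205 ± 36.6 and 424 ± 31.6. Lamc1 and Lama1 overlapped across the libraries of every group, but within each of the 9 libraries Lama1 was the lower, at 0.810 to 0.923 times Lamc1.

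The rest stood lower. Nid1 and Nid2 changed places: Nid1 was at 69.2 ± 20.8 and Nid2 at 72.6 ± 5.99 CPM per kilobase in H4K91R, and at 56.6 ± 5.29 and 64.2 ± 3.93 in H4K91Q, while in H4WT Nid1 was at 152 ± 25.6 and Nid2 at 86.8 ± 7.55. In the H4K91R libraries the nidogens overlapped. Lamb2 came next at 38.8 ± 3.13, 34.2 ± 3.32 and 39.6 ± 1.03 in H4K91R, H4K91Q and H4WT. Lama4 and Lama5 also changed places, with Lama4 at 20.5 ± 2.06, 20.2 ± 2.47 and 9.50 ± 1.30 and Lama5 at 7.35 ± 0.300, 6.45 ± 1.94 and 13.4 ± 1.37. Lama2 was lowest in every group at 1.46 ± 0.699, 0.874 ± 0.316 and 1.47 ± 0.464.

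**Figure D3:**
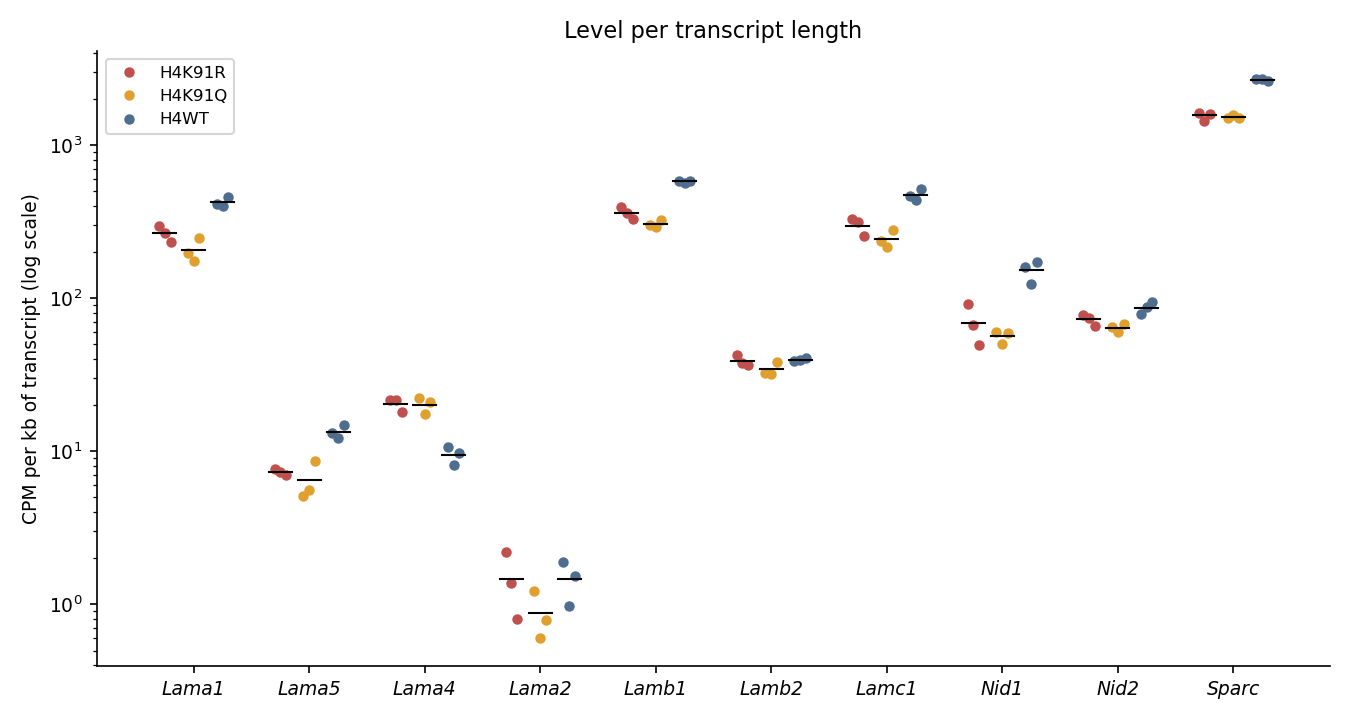
Level of each gene per kilobase of transcript (CPM per kb, log axis) in H4K91R, H4K91Q and H4WT. Points are libraries and short lines group means. Sparc is highest at 1560, 1520 and 2670, and Lama4 lies above Lama5 in the mutants and below it in H4WT.

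The make-up of the chains was read from the same per-length levels, as shares in each library. Of the summed level of Lama1, Lama2, Lama4 and Lama5, Lama4 held 6.96% ± 0.363 in H4K91R, 8.79% ± 1.19 in H4K91Q and 2.12% ± 0.274 in H4WT (SD, n = 3). By library the shares were 6.59%, 7.31% and 6.97% in H4K91R, 9.94%, 8.85% and 7.56% in H4K91Q, and 2.43%, 1.93% and 1.99% in H4WT. No group overlapped with another. The difference was 4.84 percentage points for H4K91R against H4WT and 6.67 for H4K91Q against H4WT (exact two-sided permutation test, p = 0.1 each), and 3.16 and 4.38 without length scaling. With 3 libraries against 3 the smallest p this test can give is 0.1, so it cannot pass 0.05.

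Lama1 nevertheless made up most alpha chain signal everywhere, at 90.1% ± 0.341 in H4K91R, 88.1% ± 0.888 in H4K91Q and 94.6% ± 0.398 in H4WT. Its share differed by -4.52 and -6.49 percentage points from H4WT (exact permutation test, p = 0.1 each), and without length scaling by -2.82 and -4.25. Lama5 held 2.51% ± 0.194, 2.75% ± 0.439 and 2.98% ± 0.0832 in H4K91R, H4K91Q and H4WT, with H4K91Q overlapping H4WT. Lama2 held 0.480% ± 0.180, 0.379% ± 0.143 and 0.326% ± 0.0996, and all groups overlapped.

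Lamb2 made up a larger share of the beta chains in the mutants. It held 9.69% ± 0.274 of the summed Lamb1 and Lamb2 level in H4K91R, 10.1% ± 0.414 in H4K91Q and 6.39% ± 0.173 in H4WT. The shares were 9.40% to 9.94% in H4K91R libraries, 9.81% to 10.5% in H4K91Q and 6.19% to 6.50% in H4WT. Nid2 made up 51.9% ± 5.55 of the nidogen level in H4K91R, 53.2% ± 1.37 in H4K91Q and 36.7% ± 4.30 in H4WT. Its shares were 46.1% to 57.1%, 51.7% to 54.4% and 33.2% to 41.5%. Both shares lay above H4WT in all 6 mutant libraries, by 3.30 and 3.68 points for Lamb2 and 15.2 and 16.5 points for Nid2 in H4K91R and H4K91Q (exact permutation test, p = 0.1 each).

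**Figure D4:**
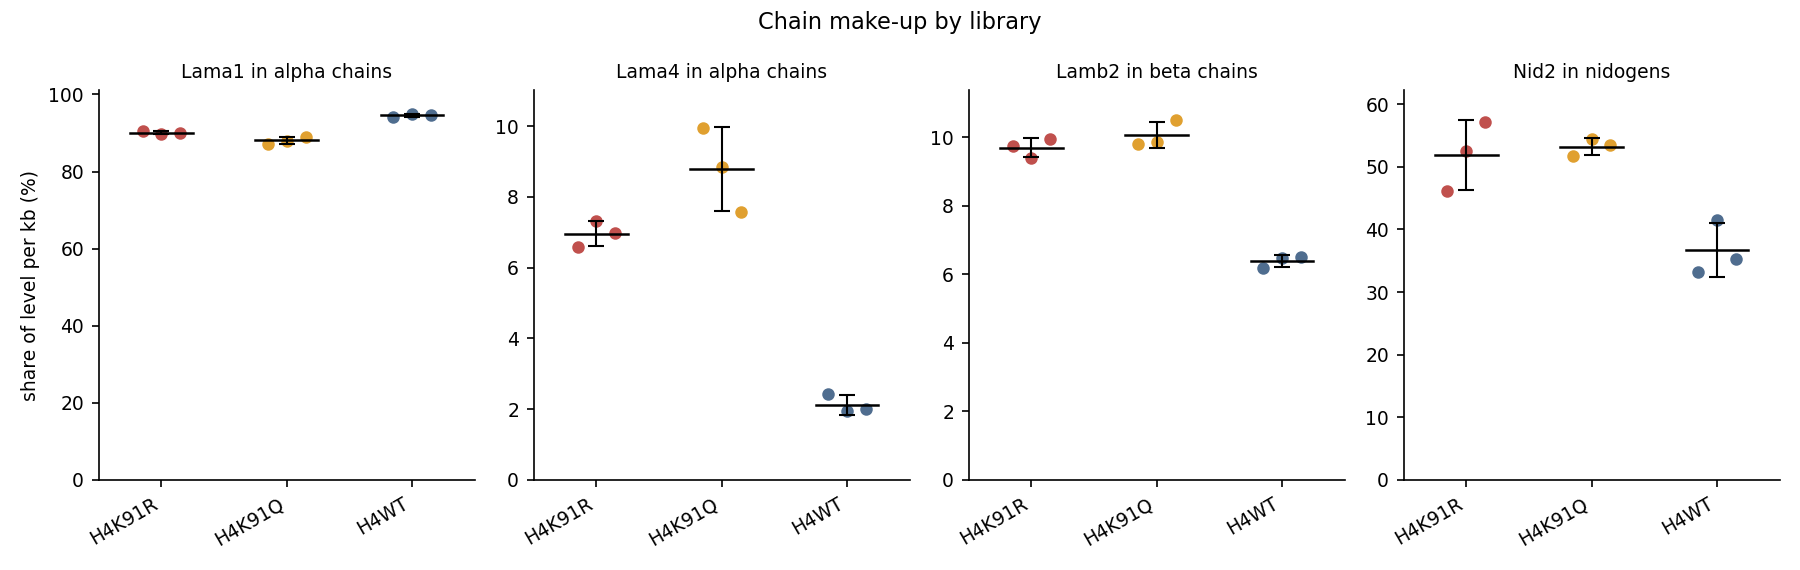
Share of a chain in the summed level per kilobase of its class (percent, axes start at 0), for Lama1 and Lama4 among the alpha chains, Lamb2 among the beta chains and Nid2 among the nidogens. Points are libraries, lines means and bars ± SD (n = 3). The mutants lie below H4WT for Lama1 and above it in the other panels, for example 6.96% and 8.79% against 2.12% for Lama4.

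Ratios to Lamc1, the shared gamma chain, changed far less than the levels. The summed alpha chains per Lamc1 were 0.944 to 1.03 in H4K91R libraries, 0.920 to 0.986 in H4K91Q and 0.947 to 0.966 in H4WT. Lamb1 per Lamc1 was 1.15 to 1.30, 1.15 to 1.36 and 1.14 to 1.31, and Lama1 per Lamc1 was 0.848 to 0.923, 0.810 to 0.877 and 0.896 to 0.917. The sum of the nidogens per Lamc1 was 0.450 to 0.516, 0.454 to 0.531 and 0.482 to 0.520. The groups overlapped in all of these except Lama1 per Lamc1 in H4K91Q, which lay below H4WT. Together the 10 genes took 1.12% to 1.33% of all counts in H4K91R, 0.989% to 1.14% in H4K91Q and 1.70% to 1.79% in H4WT.

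Within a group the laminins and nidogens tended to be high or low in the same library. H4K91R replicate 1 was the highest of its group for 9 of the 10 genes, all but Lama4, and replicate 3 was the lowest for 9, all but Sparc. Within H4K91Q, replicate 2 was lowest for 8 and replicate 3 highest for 6. Within H4WT, replicate 2 was lowest for 7 and replicate 3 highest for 6. H4WT replicate 2 was also the deepest library and H4WT replicate 3 the shallowest, whereas in H4K91R replicate 1, the highest, was the deepest and replicate 3, the lowest, the shallowest. Level thus ran with depth in H4K91R and against depth in H4WT, and the part of depth in these values was not tested.

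Promoter sequence is shown to set genes that fell in both mutants beside Lamb2 and Lama2, which were called in H4K91Q alone and in neither mutant. The RefSeq promoter table for GRCm38.p6 held a window for 6 of the 10 genes, each running from 250 bases before to 50 after the start of a RefSeq transcript. That start is the outer end of the gene as given above for Nid1 and Sparc, and lies inside it by 15 bases for Lamb2, 45 for Lama5, 147 for Lamb1 and 249 for Lama2. The Lama2 window therefore lies almost wholly within the annotated gene, and much of the Lamb1 window does. The table lists Lama5 at chr2:180225810-180226109 on the minus strand, Nid1 at chr13:13437352-13437651 on the plus strand and Lamb1 at chr12:31265043-31265342 on the plus strand. It lists Sparc at chr11:55420031-55420330 on the minus strand, Lamb2 at chr9:108479612-108479911 on the plus strand and Lama2 at chr10:27616893-27617192 on the minus strand. Lama1, Lama4, Lamc1 and Nid2 are named only. Each is printed from 5′ to 3′ on the gene's strand, with capitals for GC boxes (GGGCGG on either strand), the letters bound by Sp1-type factors.
Lama5: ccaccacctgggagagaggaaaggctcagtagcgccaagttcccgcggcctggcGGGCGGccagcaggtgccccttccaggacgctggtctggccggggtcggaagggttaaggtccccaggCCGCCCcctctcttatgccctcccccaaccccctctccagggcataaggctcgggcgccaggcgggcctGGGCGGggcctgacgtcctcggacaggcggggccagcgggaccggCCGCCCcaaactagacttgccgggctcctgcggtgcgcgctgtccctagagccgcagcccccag
Nid1: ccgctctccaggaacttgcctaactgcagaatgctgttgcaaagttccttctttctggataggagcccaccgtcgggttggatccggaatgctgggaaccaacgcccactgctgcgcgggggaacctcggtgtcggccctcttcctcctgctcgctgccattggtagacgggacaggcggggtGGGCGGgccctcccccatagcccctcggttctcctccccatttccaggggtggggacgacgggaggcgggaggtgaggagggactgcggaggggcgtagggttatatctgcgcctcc
Lamb1: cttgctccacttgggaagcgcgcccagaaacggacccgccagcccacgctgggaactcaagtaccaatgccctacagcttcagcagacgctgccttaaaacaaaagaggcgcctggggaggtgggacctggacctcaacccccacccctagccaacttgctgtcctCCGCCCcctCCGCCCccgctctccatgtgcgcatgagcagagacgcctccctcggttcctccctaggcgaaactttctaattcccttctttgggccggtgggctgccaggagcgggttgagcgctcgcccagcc
Sparc: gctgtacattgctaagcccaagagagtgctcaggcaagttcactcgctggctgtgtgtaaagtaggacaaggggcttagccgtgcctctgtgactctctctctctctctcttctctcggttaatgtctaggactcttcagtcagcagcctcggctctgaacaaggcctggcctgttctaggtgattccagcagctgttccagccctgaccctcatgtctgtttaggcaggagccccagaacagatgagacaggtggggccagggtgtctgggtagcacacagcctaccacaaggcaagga
Lamb2: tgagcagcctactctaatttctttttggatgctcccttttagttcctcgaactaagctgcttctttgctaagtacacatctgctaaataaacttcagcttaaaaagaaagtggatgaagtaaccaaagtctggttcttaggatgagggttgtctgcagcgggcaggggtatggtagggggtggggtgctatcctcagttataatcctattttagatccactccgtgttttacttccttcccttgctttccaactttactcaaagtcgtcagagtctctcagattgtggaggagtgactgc
Lama2: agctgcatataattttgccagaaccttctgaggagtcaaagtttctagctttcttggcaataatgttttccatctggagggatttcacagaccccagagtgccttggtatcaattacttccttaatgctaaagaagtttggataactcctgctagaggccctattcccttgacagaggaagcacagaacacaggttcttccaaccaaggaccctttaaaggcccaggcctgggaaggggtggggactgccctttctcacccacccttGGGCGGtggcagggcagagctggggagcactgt

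The first 3 of these windows belong to genes that fell and are rich in G and C. Lama5 had 72.7% G and C, 24 CpG and 4 GC boxes, Nid1 had 64.7%, 20 CpG and 1 GC box, and Lamb1 had 63.7%, 18 CpG and 2 GC boxes. The Sparc window, of a gene that also fell in both mutants, had 55.3%, 4 CpG and none of the motifs searched. Lamb2, with no call in H4K91R, had 44.0%, 4 CpG and none of the motifs, and Lama2, with no call in either mutant, had 50.3%, 1 CpG and 1 GC box. Over all 32851 windows the median was 52.7% and 7 CpG, and 35.7% held a GC box.

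Letters of other motifs were searched on both strands as well. They were CCAAT, which NF-Y binds, and for the TATA box the letters TATAAA. The letters taken for AP-1 were TGANTCA, those for TEAD factors were GGAATG and those for GATA factors were AGATAA. No matches overlapped each other. CCAAT was found once each in the Lamb1 and Nid1 windows, and 37.4% of all windows hold it. GGAATG was found once in the Nid1 window, and 14.7% of all windows hold it. TATAAA, held by 13.6% of all windows, was in none of the 6. The same holds for the AP-1 letters (7.81% of all windows) and the GATA letters (11.2%). These are matches of letters in a window, not binding sites.

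Laminin chains outside the 10 genes were read as well, followed by lists of related genes. The counts called in these lists stand beside those of all tested genes. Of these, 46% were called in H4K91R against H4WT, 20.9% higher and 25.1% lower. In H4K91Q against H4WT 46.3% were called, 22.5% higher and 23.8% lower. Lama3, an alpha chain of the epidermal basement membrane, stood at 4 to 8 counts in H4K91R libraries, 11 to 20 in H4K91Q and 14 to 41 in H4WT, and it fell by 1.95 ± 0.43 and 1.39 ± 0.37 on the log2 scale (edgeR, adjusted p = 0.00232 and 0.00783). Lamb3 averaged 17.8, 15.6 and 18.5 CPM in H4K91R, H4K91Q and H4WT, with log2 changes of -0.07 and -0.25 that did not pass. Lamc3, at 1 to 14 counts per library, was not tested.

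Collagen IV, the network that nidogens tie to laminin, fell with the laminins. Col4a1 stood at 5260, 4633 and 4278 CPM in H4K91R, at 3660, 3702 and 4125 CPM in H4K91Q and at 7555, 7863 and 8046 CPM in H4WT. All mutant libraries were below all H4WT libraries, and all H4K91Q below all H4K91R libraries. Col4a1 fell by 0.73 ± 0.08 on the log2 scale in H4K91R (edgeR, adjusted p = 1.23e-05) and by 1.03 ± 0.08 in H4K91Q (adjusted p = 1.17e-06). Col4a2, its partner in the same trimer, fell by 0.47 in H4K91R and 0.87 ± 0.09 in H4K91Q on the log2 scale, and its log2 difference for H4K91Q against H4K91R was -0.39 (edgeR, adjusted p = 0.0214). Col18a1, the collagen that yields endostatin, instead stood at 273, 183 and 166 CPM in H4K91R, at 151, 108 and 127 CPM in H4K91Q and at 88.6, 59.5 and 62.3 CPM in H4WT. Every mutant library was above every H4WT library, and Col18a1 rose by 1.58 ± 0.19 in H4K91R (edgeR, adjusted p = 2.38e-05) and by 0.89 in H4K91Q (adjusted p = 0.00212). Of 8 tested collagen genes of basement membranes (10 in the list), 2 rose and 4 fell in H4K91R, and 3 rose and 4 fell in H4K91Q.

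Among proteoglycans and linkers the directions were mixed. Of 21 tested genes, 5 rose and 9 fell in H4K91R and 8 rose and 8 fell in H4K91Q, with medians of 0.17 and 0.06 on the log2 scale. With library size scaling these were 9 and 8 in H4K91R and 10 and 7 in H4K91Q. Hmcn1, an extracellular matrix protein of cell junctions, stood at 18.5, 13.3 and 11.3 CPM in H4K91R, at 13.4, 14.6 and 22.4 CPM in H4K91Q and at 154, 122 and 216 CPM in H4WT. It fell by 3.48 ± 0.24 on the log2 scale in H4K91R and fell by 3.29 ± 0.23 in H4K91Q (edgeR, adjusted p = 2.75e-07 and 5.46e-07), far more than any of the 10 genes. Sparcl1, the closest relative of Sparc, moved against it: it averaged 18.8 CPM in H4K91R, 19.6 CPM in H4K91Q and 3.38 CPM in H4WT. Sparcl1 rose by 2.46 ± 0.17 and 2.53 ± 0.17 on the log2 scale (edgeR, adjusted p = 2.54e-07 and 3.42e-07). Tinagl1, a laminin-binding matrix protein, fell by 0.66 ± 0.08 and 1.03 ± 0.08 on the log2 scale. Ntn1, a guidance protein related to laminins, rose by 1.08 ± 0.10 in H4K91R, and averaged 93.3, 76.8 and 44.1 CPM in H4K91R, H4K91Q and H4WT. Hspg2, which encodes perlecan and was chosen after its values were seen, averaged 529, 368 and 1283 CPM in H4K91R, H4K91Q and H4WT.

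Receptors for laminin fell more often than they rose. Of 16 tested genes, 2 rose and 12 fell in H4K91R, and 1 rose and 12 fell in H4K91Q (with library size scaling 2 and 8, and 1 and 8). Itgb1, the beta subunit of most laminin-binding integrins, stood at 1028, 842 and 760 CPM in H4K91R, at 932, 855 and 847 CPM in H4K91Q and at 2236, 1837 and 2179 CPM in H4WT. No mutant library reached H4WT, and Itgb1 fell by 1.25 ± 0.11 on the log2 scale in both mutants (edgeR, adjusted p = 1.30e-06 and 1.98e-06). Itgb4, the partner in hemidesmosomes, fell by 1.08 ± 0.11 and 1.12 ± 0.11 on the log2 scale. Adgrg6, an adhesion receptor that binds laminin on Schwann cells, fell by 1.57 ± 0.18 and 1.89 ± 0.17. Itgav, an alpha subunit that binds several matrix proteins, fell by 1.44 ± 0.18 in H4K91R, and averaged 218.2, 190.5 and 593.8 CPM in H4K91R, H4K91Q and H4WT. Itga1, a collagen and laminin receptor subunit, fell by 1.89 ± 0.19 in H4K91Q, and averaged 13.7, 9.03 and 34.1 CPM in H4K91R, H4K91Q and H4WT. The genes that rose were Itga9 and Itgb8 in H4K91R and Itga9 in H4K91Q, at 0.43, 0.60 and 0.39 on the log2 scale, named after their values were seen.

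The enzymes that build the laminin-binding sugar on dystroglycan mostly gave no call. Of 17 tested genes 0 rose and 5 fell in each mutant, with medians of -0.02 and -0.01. Rxylt1, a xylosyltransferase of that sugar, fell by 0.68 ± 0.08 and 0.63 ± 0.08 on the log2 scale. Library size scaling turned this list's split to 5 rising and 3 falling in H4K91R and 2 and 3 in H4K91Q, so no direction is given for it.

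Genes of basement membrane assembly and turnover mostly fell. Of 22 tested genes, 1 rose and 14 fell in H4K91R and 1 rose and 15 fell in H4K91Q, with medians of -0.37 and -0.45 (with library size scaling 3 and 10, and 1 and 13). Loxl2, a lysyl oxidase that cross-links collagen IV, stood at 513, 344 and 288 CPM in H4K91R, at 299, 261 and 285 CPM in H4K91Q and at 1051, 955 and 1111 CPM in H4WT. It fell by 1.44 ± 0.16 and 1.88 ± 0.16 on the log2 scale (edgeR, adjusted p = 1.01e-05 and 1.94e-06). Plod2 and P4ha1, which hydroxylate collagen, fell by 0.63 ± 0.07 and 0.67 ± 0.08 in H4K91R and by 0.73 ± 0.07 and 0.76 ± 0.08 in H4K91Q on the log2 scale.

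**Figure D5:**
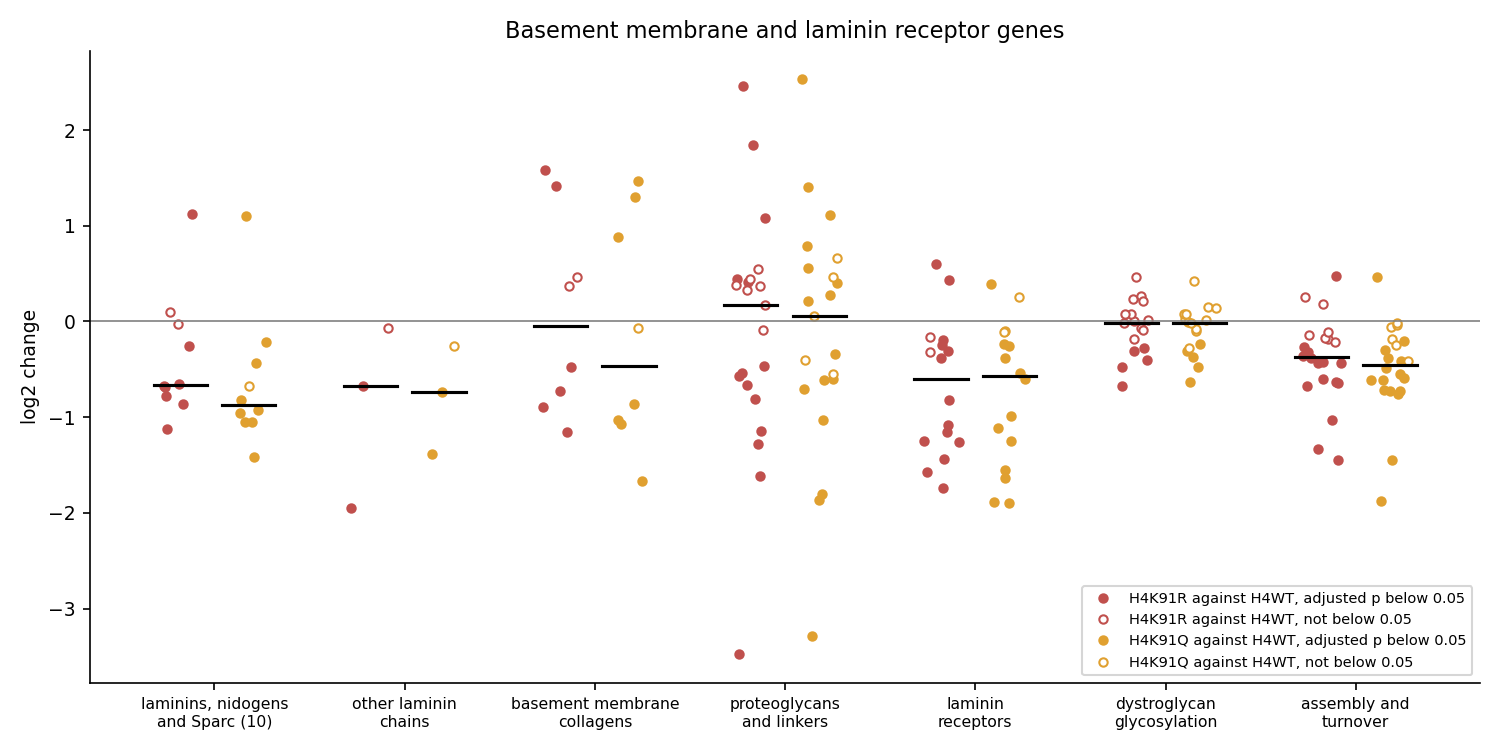
Log2 change of each tested gene in H4K91R (left column of each pair) and H4K91Q (right column) against H4WT, for the 10 genes and 6 lists of related genes. Filled points passed the edgeR test at an adjusted p below 0.05, and black lines are medians. The medians of the 10 genes lie at -0.67 and -0.87, and those of the laminin receptors at -0.60 and -0.58.

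Markers of cell types that make these proteins also moved. Their counts of called genes, here and for the cell types below, stand beside 46% of all tested genes in H4K91R and 46.3% in H4K91Q. For cells of the parietal and visceral endoderm, which make much Lama1, Lamb1, Lamc1 and Sparc, the summed level of 16 markers was 2254 to 2383 CPM in H4K91R, 2024 to 2298 CPM in H4K91Q and 2483 to 2799 CPM in H4WT. Of 15 tested, 2 rose and 8 fell in H4K91R and 2 rose and 9 fell in H4K91Q. Thbd, thrombomodulin of the parietal endoderm, fell by 0.96 ± 0.07 and 1.10 ± 0.07 on the log2 scale. Cubn, an uptake receptor of the visceral endoderm, fell by 1.36 ± 0.18 in H4K91R, and averaged 59.5, 63.1 and 153 CPM in H4K91R, H4K91Q and H4WT. Both are among the markers that fell, and the called markers that rose are not named here. Among transcription factors of the list, Gata6 fell by 0.48 ± 0.08 and 0.70 ± 0.08 on the log2 scale (edgeR, adjusted p = 0.000238 and 1.3e-05). Gata4 fell by 0.635 ± 0.07 in H4K91Q (edgeR, adjusted p = 1.63e-05) and Sox7 by 0.50 ± 0.09 in H4K91R (adjusted p = 0.000377). The factor Sox17 gave log2 changes of 0.09 and -0.11 that did not pass, at 216, 188 and 203 CPM in H4K91R, H4K91Q and H4WT. Apoa1 had no count in H4WT. The part of these cells in the laminin result was not tested.

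Smooth muscle and pericyte markers, of cells that are wrapped in basement membrane, summed to 557 to 851 CPM in H4K91R, 530 to 584 CPM in H4K91Q and 4096 to 4920 CPM in H4WT. Of 11 tested (12 listed), 1 rose and 9 fell in each mutant, with Acta2 at -2.98 ± 0.14 and -3.34 ± 0.14 on the log2 scale. Acta2 is among the markers that fell, and the one that rose is not named here. Epithelial markers summed to 928 to 1047 CPM in H4K91R, 1017 to 1156 CPM in H4K91Q and 1487 to 1656 CPM in H4WT. Of 11 tested, 0 rose and 8 fell in H4K91R and 1 rose and 6 fell in H4K91Q, while Krt5 was near 0 in all groups. The part of either cell type in the fall of the laminins was not tested.

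For Lama4, the cell types that carry it gave differing values. Endothelial markers summed to 347 to 452 CPM in H4K91R, 336 to 396 CPM in H4K91Q and 599 to 674 CPM in H4WT. Their defining genes Cldn5, Vwf, Tie1 and Erg averaged under 1 CPM in each group. Of 8 tested, 1 rose and 3 fell in H4K91R and 2 rose and 3 fell in H4K91Q, beside 46% and 46.3% called among all tested genes. Flt1, a VEGF receptor, made up most of the endothelial sum at 317, 282 and 520 CPM in H4K91R, H4K91Q and H4WT. It fell by 0.71 ± 0.10 and 0.88 ± 0.10 on the log2 scale. Kdr, at 2.89, 2.91 and 7.69 CPM in the same order, fell by 1.40 ± 0.31 and 1.45 ± 0.295 (edgeR, adjusted p = 0.00232 and 0.00136). Eng, at 36.9, 35.8 and 55.2 CPM, fell by 0.54 ± 0.20 in H4K91R (edgeR, adjusted p = 0.0413). Cdh5, the cadherin of endothelial junctions, averaged 10.2 CPM in H4K91R, 12.4 CPM in H4K91Q and 6.66 CPM in H4WT, and rose by 0.66 ± 0.15 and 0.92 ± 0.14 (edgeR, adjusted p = 0.00318 and 0.000204). Pecam1, another endothelial junction protein, rose by 1.33 ± 0.30 in H4K91Q (edgeR, adjusted p = 0.00277), at averages of 0.606, 2.47 and 0.808 CPM in H4K91R, H4K91Q and H4WT. Fibroblast and mesenchyme markers summed to 7938 to 8861 CPM in H4K91R, 8468 to 9343 CPM in H4K91Q and 7773 to 8658 CPM in H4WT. Of 12 tested, 4 rose and 3 fell in H4K91R and 5 rose and 3 fell in H4K91Q. Pdgfra is in both this list and the endoderm list. The part of these cells in the rise of Lama4 was not tested.

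For Lama2, the skeletal muscle factors Myod1 and Myf6 had no count in any library. Schwann and neural crest markers summed to 71.5 to 83.4 CPM in H4K91R, 68.8 to 71.6 CPM in H4K91Q and 16.7 to 20.7 CPM in H4WT, and Sox10 averaged under 1 CPM in each group. Of 7 tested (10 listed), 5 rose and 1 fell in H4K91R and 5 rose and 0 fell in H4K91Q. Ngfr, at 40.5, 35.0 and 3.46 CPM in H4K91R, H4K91Q and H4WT, and Ednrb, at 24.9, 16.8 and 5.01 CPM, made up most of this sum in the mutants. Erbb3, at 1.64, 3.36 and 4.55 CPM, fell by 1.49 ± 0.27 on the log2 scale in H4K91R (edgeR, adjusted p = 0.000628). The part of these cells in the Lama2 values was not tested.

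The neural label was checked against its own markers. Neuron markers summed to 1062 to 1269 CPM in H4K91R, 878 to 932 CPM in H4K91Q and 398 to 486 CPM in H4WT. Of 12 tested, 10 rose and 0 fell in H4K91R and 10 rose and 1 fell in H4K91Q, with Dcx of migrating neurons up by 2.36 ± 0.11 and 1.88 ± 0.11 on the log2 scale. Of 12 neural progenitor markers 10 rose and 1 fell in H4K91R and 9 rose and 2 fell in H4K91Q, with Fabp7 of radial glia up by 2.88 ± 0.13 and 2.36 ± 0.13. Their sum lay below every H4WT library in H4K91Q and overlapped with H4WT in H4K91R, at 1864 to 1968 CPM in H4K91R, 1586 to 1641 CPM in H4K91Q and 1896 to 2298 CPM in H4WT. Vim, an intermediate filament gene also used by mesenchyme and named after its values were seen, made up most of it at 1159, 1072 and 1743 CPM. Neural markers were thus present in all groups, beside markers of endoderm, epithelium and mesenchyme. Most neural markers moved against the laminins, and whether a changed mix of cells has a part in the fall of the laminins was not tested.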

How the data were processed

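Poly(A) RNA of 9 libraries, 3 each of H4K91R, H4K91Q and H4WT cultures, was sequenced. The authors deposited expected counts per Entrez gene, whole numbers, for which the submitters' processing notes name Salmon 0.8.2, DESeq2 and mm10. The sources used here do not give the annotation or the strand setting. RefSeq for GRCm38.p6, a patch release of mm10, gave symbols to 24045 of 24100 IDs.

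Counts were filtered with filterByExpr (minimum count 10) and tested with edgeR 4.0.16 in R 4.3.3. TMM scaling (factors 0.911 to 1.06) and a quasi-likelihood fit with 1 mean per group over all 9 libraries were used, and the biological coefficient of variation was 8.82%. Tests were two-sided, with Benjamini-Hochberg adjustment over 14761 genes and a threshold of 0.05. The SE of a log2 change is its size over the square root of its F statistic. Precision at low counts is limited by the totals of 8970553 to 28887501 counts. The fit was also run on simulated data with known changes. Transcript lengths and exons are those of the longest protein-coding transcript of each gene in the GENCODE annotation of the same build.

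The 10 genes, the lists of related genes and markers and the tests were chosen with earlier results of these data known. Lists hold other laminin chains, basement membrane collagens, proteoglycans and linkers, laminin receptors, dystroglycan glycosylation, assembly and turnover, and markers of parietal and visceral endoderm, endothelium, smooth muscle and pericytes, fibroblasts and mesenchyme, neural progenitors, neurons, Schwann cells and neural crest, epithelium and skeletal muscle. From a list, up to 4 called genes per mutant were open to naming, by smallest adjusted p among those averaging 1 CPM or more, and the other laminin chains whatever their values. Not every gene open to naming is reported here. Genes named outside this rule, among them Sox17, Apoa1, Krt5, Cldn5, Vwf, Tie1, Erg, Myod1, Myf6 and Sox10, were named after their values were seen. Of the 11 skeletal muscle markers 2 could be tested, and 1 rose and 1 fell in each mutant.

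Same-numbered libraries were compared by the correlation of their deviations from group means. Over 9 pairs r ran from -0.16 to 0.20 and was above 0.1 in 5. All 3 pairs of H4K91Q with H4WT were above 0.1 (0.141 to 0.198), those with H4K91R were not all above it, and the labels give no meaning to the number. The block is therefore given beside a gene where it changes a call in H4K91Q against H4WT. No libraries of a group were duplicates, with a chi-square per degree of freedom of 4.38 to 11.5. Alternatives were RLE and library size scaling, no filter, the replicate block, the compared groups alone, DESeq2 1.42.0, limma-voom (limma 3.58.1) and leaving out each library.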

Additional observations from a re-analysis of the deposited data

How the results depend on the processing

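In H4K91R and H4K91Q against H4WT, the count of the 10 genes called stayed at 7 to 8 and 8 to 9 under all settings tried, and without single libraries over the same ranges. All genes called numbered 5851 to 6835 and 5837 to 6961 without single libraries. The joint test gave 7146 to 7961 genes under the other settings and 6356 to 7691 without single libraries, and 8 to 9 of the 10 genes in either case. Between the mutants, 761 genes were called, and 188 to 1093 without single libraries (188 without H4K91R replicate 2, 202 without H4K91Q replicate 2, 298 without H4K91Q replicate 1, 410 without H4K91R replicate 1). Of the 10 genes 0 were called there, against 1 with no filter on low counts, 1 with the replicate block, 2 with DESeq2 and 0 to 4 without single libraries. The cause was not tested.

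Signs turned for values that were not called. Lama2 in H4K91R against H4WT ran from -0.34 (without H4K91R replicate 1) to 0.37 without single libraries, and was -0.19 without H4WT replicate 2. Lamb2 in H4K91R was 0.00059 with RLE scaling, 0.16 with library size scaling, 0.00018 with the compared groups alone, 0.00071 with DESeq2, and -0.096 to 0.015 without single libraries (the highest without H4K91R replicate 3). Between the mutants Lama4 ran from -0.099 to 0.065, above 0 at 0.022, 0.023 and 0.065 without H4K91R replicate 1, H4K91R replicate 2 and H4K91Q replicate 2. Sparc ran from -0.091 to 0.00034, the highest without H4K91R replicate 1. The Lamb2 call in H4K91Q against H4WT also ended with RLE scaling (adjusted p = 0.0581), no filter (0.0599) and the compared groups alone (0.0509, edgeR). It ended too without H4K91R replicate 2 (0.0642), H4K91Q replicate 1 (0.161), H4K91Q replicate 2 (0.157), or H4WT replicate 1 (0.0682), 2 (0.0823) or 3 (0.117). Lama2 gained a call there without H4K91Q replicate 1 (0.0471) or H4WT replicate 2 (0.0433). With the replicate block, 6751 genes were called in H4K91R against H4WT, 6840 in H4K91Q against H4WT and 1011 between the mutants, where Lama2 was the called one of the 10 (0.0417), and the block changed no call against H4WT of the 10 genes beyond Lama2 and Lamb2 in H4K91Q. Of the 9 libraries 3 correlated best with a library of their own number.

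Library size scaling shifted the median of all genes by 0.18 in H4K91R and 0.17 in H4K91Q on the log2 scale. The split of higher and lower calls turned to 5031 and 2013, against 3092 and 3705 with TMM, and in H4K91Q to 5557 and 2069, against 3314 and 3516. The falls of Lama1, Lama5, Lamb1, Lamc1, Nid1 and Sparc and the rise of Lama4 kept their calls under every setting in both mutants. Without length scaling the Lama1 share differed from H4WT by -2.82 (H4K91R) and -4.25 (H4K91Q) points and the Lama4 share by 3.16 and 4.38. Without single libraries the shares differed, for H4K91R and H4K91Q, by -4.73 to -4.34 and -6.94 to -6.06 (Lama1), 4.66 to 5.03 and 6.09 to 7.28 (Lama4), 3.17 to 3.44 and 3.44 to 3.81 (Lamb2), and 12.6 to 18.1 and 14.8 to 18.9 (Nid2). Low depth in H4WT replicates 1 and 3 and H4K91R replicate 3 limits Lama3 and Lamc3. Lama2 had more counts, 78 to 366 per library, but varied widely between libraries. Its coefficients of variation were 48.0%, 36.2% and 31.6% in H4K91R, H4K91Q and H4WT.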
